A study of Mus musculus with 35 samples.

Results

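The genes described here encode the enzymes that conjugate foreign and endogenous molecules or clear reactive aldehydes and ketones. They are the glutathione S-transferases (Gst), UDP-glycosyltransferases (Ugt), sulfotransferases (Sult), aldehyde dehydrogenases (Aldh followed by a digit), aldo-keto reductases of the Akr1c and Akr7 groups, and the carbonyl reductases Cbr1, Cbr2 and Cbr3. Members were chosen by gene symbol in the platform annotation, which gave 78 of the 18193 genes with a probe set that names 1 gene. The brightest probe set stood for a gene. Of the 78 members, 59 were tested, and the other 19 had a mean log2 signal below 5.273, the limit set for dim probe sets.

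Whole kidneys of FVB/NJ mice were measured on 35 Affymetrix arrays. The diabetic animals were of the OVE26 line, in which a calmodulin transgene expressed in pancreatic beta cells leaves the animal short of insulin from early life. Mice aged 2 months gave 6 diabetic and 6 control arrays. Those aged 4 months gave 7 diabetic and 4 control arrays, and those aged 8 months gave 6 of each group. The labels give no treatment, sex or transgene status for the controls and do not say that each array came from a separate animal, so the p-values measure the spread between these samples. Values are log2 signals, differences are diabetic minus control ± SE of the limma fit, and a gene was called when its p, adjusted by Benjamini-Hochberg over the 13004 genes tested, was under 0.05. In whole-kidney RNA, fewer cells of a type and less RNA per cell cannot be told apart.

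Glutathione S-transferases add glutathione to electrophiles, UDP-glycosyltransferases add a sugar such as glucuronic acid, and sulfotransferases add a sulfate group taken from the donor PAPS. Aldehyde dehydrogenases oxidise aldehydes to acids, including retinaldehyde and the products of lipid peroxidation. Aldo-keto and carbonyl reductases reduce aldehydes and ketones, steroids among them, to alcohols. In the kidney these reactions are known mainly from the proximal tubule.

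Some of the genes that carry the findings below are close copies of each other on the same chromosome, and their promoters were aligned. All windows run from 250 bases before to 50 bases after a RefSeq start in GRCm38.p6. Akr1c12 (chr13:4279350-4279649, minus strand) and Akr1c13 (chr13:4190937-4191236, plus strand) are given 5′ to 3′, with capitals at the 20 aligned columns where the 2 windows differ, 12 of them substitutions and 8 gaps:
Akr1c12: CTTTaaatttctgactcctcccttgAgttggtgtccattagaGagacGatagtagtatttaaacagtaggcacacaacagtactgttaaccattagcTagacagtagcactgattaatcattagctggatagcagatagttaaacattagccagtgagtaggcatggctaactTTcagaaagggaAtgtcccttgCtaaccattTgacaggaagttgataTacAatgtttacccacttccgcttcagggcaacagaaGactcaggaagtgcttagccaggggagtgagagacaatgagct
Akr1c13: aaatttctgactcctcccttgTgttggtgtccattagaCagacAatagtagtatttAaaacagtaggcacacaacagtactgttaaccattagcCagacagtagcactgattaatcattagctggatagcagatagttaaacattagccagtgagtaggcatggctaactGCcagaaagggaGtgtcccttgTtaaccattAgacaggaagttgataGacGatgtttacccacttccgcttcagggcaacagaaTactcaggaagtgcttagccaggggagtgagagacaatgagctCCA
The 2 windows were identical in 284 of 304 aligned columns (93.4%), whereas the other pairs among the promoters of Akr1c12, Akr1c13, Akr1c14, Akr1c18, Akr1c19 and Akr1c21, the ones aligned, stood between 48.9% and 59.8%. The signals of these 2 genes nevertheless differed from control in opposite directions, as described below.

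Aldh1a7 (chr19:20727507-20727806, minus strand) and Aldh1a1 (chr19:20601718-20602017, plus strand) are adjacent genes that were both higher in diabetic kidneys, and their promoters are given in the same way, with capitals at the 89 aligned columns that differ:
Aldh1a7: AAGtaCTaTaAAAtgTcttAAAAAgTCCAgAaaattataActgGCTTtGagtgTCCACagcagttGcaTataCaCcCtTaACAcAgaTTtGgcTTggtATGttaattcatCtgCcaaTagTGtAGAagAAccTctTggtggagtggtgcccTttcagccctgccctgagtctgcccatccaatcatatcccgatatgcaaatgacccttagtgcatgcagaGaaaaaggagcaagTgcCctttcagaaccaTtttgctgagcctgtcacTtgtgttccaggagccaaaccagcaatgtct
Aldh1a1: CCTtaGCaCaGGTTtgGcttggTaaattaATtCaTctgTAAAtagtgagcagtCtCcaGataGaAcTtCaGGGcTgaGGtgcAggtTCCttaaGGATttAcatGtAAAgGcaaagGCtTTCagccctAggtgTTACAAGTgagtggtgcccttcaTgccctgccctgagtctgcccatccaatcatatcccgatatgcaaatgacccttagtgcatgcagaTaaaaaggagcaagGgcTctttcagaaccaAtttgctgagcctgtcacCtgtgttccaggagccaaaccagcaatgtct
These windows were identical in 233 of 322 columns (72.4%). The differing columns lie mostly in the stretch farther from the start, and the letters next to the start are nearly all shared. A second annotated start of Aldh1a1 was less alike (53.9%).

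Cbr3 (chr16:93682969-93683268) and Cbr1 (chr16:93607587-93607886), both on the plus strand, are neighbours too, and of these Cbr3 was called and Cbr1 was not. Their promoters are given with motif matches in capitals:
Cbr3: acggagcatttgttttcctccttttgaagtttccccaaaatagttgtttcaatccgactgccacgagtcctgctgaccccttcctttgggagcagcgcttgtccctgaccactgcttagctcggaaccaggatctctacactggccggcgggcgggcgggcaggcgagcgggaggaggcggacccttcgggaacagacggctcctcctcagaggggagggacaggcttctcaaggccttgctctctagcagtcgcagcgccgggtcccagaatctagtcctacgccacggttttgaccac
Cbr1: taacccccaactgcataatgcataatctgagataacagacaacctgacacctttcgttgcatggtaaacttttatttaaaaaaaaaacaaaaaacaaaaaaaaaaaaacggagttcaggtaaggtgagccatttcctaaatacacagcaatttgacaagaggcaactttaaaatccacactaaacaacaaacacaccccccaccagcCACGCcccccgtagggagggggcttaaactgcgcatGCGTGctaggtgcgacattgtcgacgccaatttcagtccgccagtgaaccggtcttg
The windows were identical in 159 of 359 columns (44.3%). The 4 motifs searched on both strands, with overlaps allowed, were the TATA box TATAAA, the antioxidant response element core TGACNNNGC, the dioxin response element core GCGTG and the HNF1 core GTTAAT. Cbr1 held GCGTG at 2 places, and Cbr3 held 0 matches to any of them.

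RefSeq promoters were matched for 66 of the 78 members, 80 windows in all. GCGTG was present in 26.2% of the members' windows and in 32.4% of all promoters. For TGACNNNGC the shares were 8.75% of the members' windows and 12.4% of all promoters. It was in 7 of 39 windows of tested members called at no age. It was in 0 of 14 windows of members called higher, 0 of 7 of members called lower and 0 of 20 of untested members. With so few windows these counts do not separate called from other members, and they were not tested. TATAAA stood in 13.8% against 13.6%, and GTTAAT in 8.75% against 7.1%. A match is a description of the letters and does not show a bound site.

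Diabetic and control kidneys differed in 6 enzyme genes in the youngest mice, in 5 at the middle age and in 19 in the oldest. At 2 months 2 members were higher and 4 lower, which is 10.2% of the 59 tested, while 2.54% of all genes tested were called (0.754% higher, 1.78% lower). The 4-month comparison had 3 members higher and 2 lower, 8.47% against 0.969% of all genes (0.415% higher, 0.554% lower). In the 8-month comparison 11 were higher and 8 lower, 32.2% against 16.8% of all genes, of which 9.87% were higher and 6.95% lower. The median difference over the members was -0.02, 0.06 and -0.01 at the 3 ages, beside -0.01, 0.01 and -0.00036 over all genes, so the called members went in both directions. Quantile normalisation turned the 2-month split into 3 higher and 3 lower over all arrays and 3 higher and 4 lower within each age, and median centring into 1 higher and 4 lower. The 8-month split became 12 higher and 11 lower after quantile normalisation over all arrays and 10 higher and 9 lower within each age. Of all genes called at 4 months, 55.0% were higher after quantile normalisation over all arrays. Of those called at 8 months, 50% were higher after it, while 1283 of 2187 were higher in the deposited values.

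**Figure D1:**
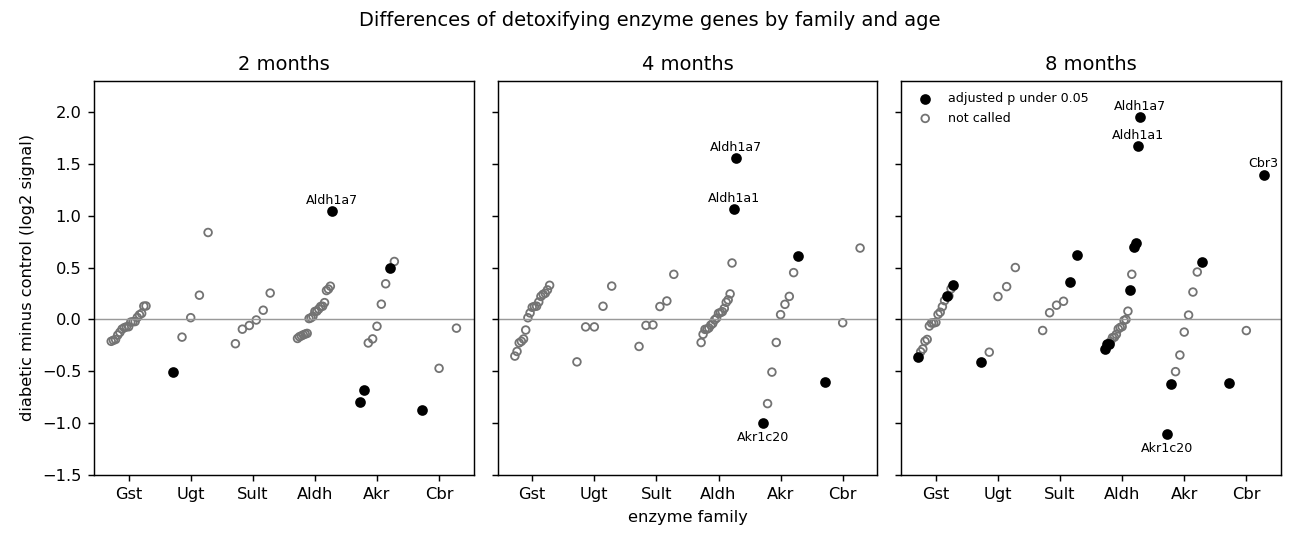
Log2 difference, diabetic minus control, of the 59 tested enzyme genes by family (x axis) at 2, 4 and 8 months (panels). Filled points are genes called at adjusted p under 0.05 and open points are not called. At 8 months Aldh1a7, Aldh1a1 and Cbr3 lie above 1, Akr1c20 lies below -1, and 2 of the 3 Cbr genes, Cbr3 and Cbr2, are called in opposite directions.

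Of the 19 members called at any age, 0 were called higher at one age and lower at another. Aldh1a7 and Akr1c12 were higher at all 3 ages, and Akr1c20 and Cbr2 were lower at all 3. Aldh1a1 was higher at 4 and 8 months, and Ugt3a1 and Akr1c13 were lower at 2 and 8 months. The other 12 were called at 8 months alone, 8 of them higher (Gsto1, Gstp1, Sult1b1, Sult2b1, Aldh18a1, Aldh1b1, Aldh3b1 and Cbr3) and 4 lower (Gstk1, Aldh16a1, Aldh4a1 and Aldh5a1). Being called at 1 age and not at another does not show a difference between ages, which was tested by itself below. Diabetic and control arrays did not overlap for 3 members at 2 months, all lower (1.5% of all genes, 0.538% higher and 0.961% lower). At 4 months this held for 6 members higher and 2 lower (4.81% of all genes, 2.37% higher and 2.44% lower), Gstm1, Gstm5, Aldh3b1 and Aldh7a1 among them without a call. At 8 months it held for 10 higher and 2 lower (9.7% of all genes, 5.41% higher and 4.28% lower), with Gstm1 and Gstm2 not called.

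**Figure D2:**
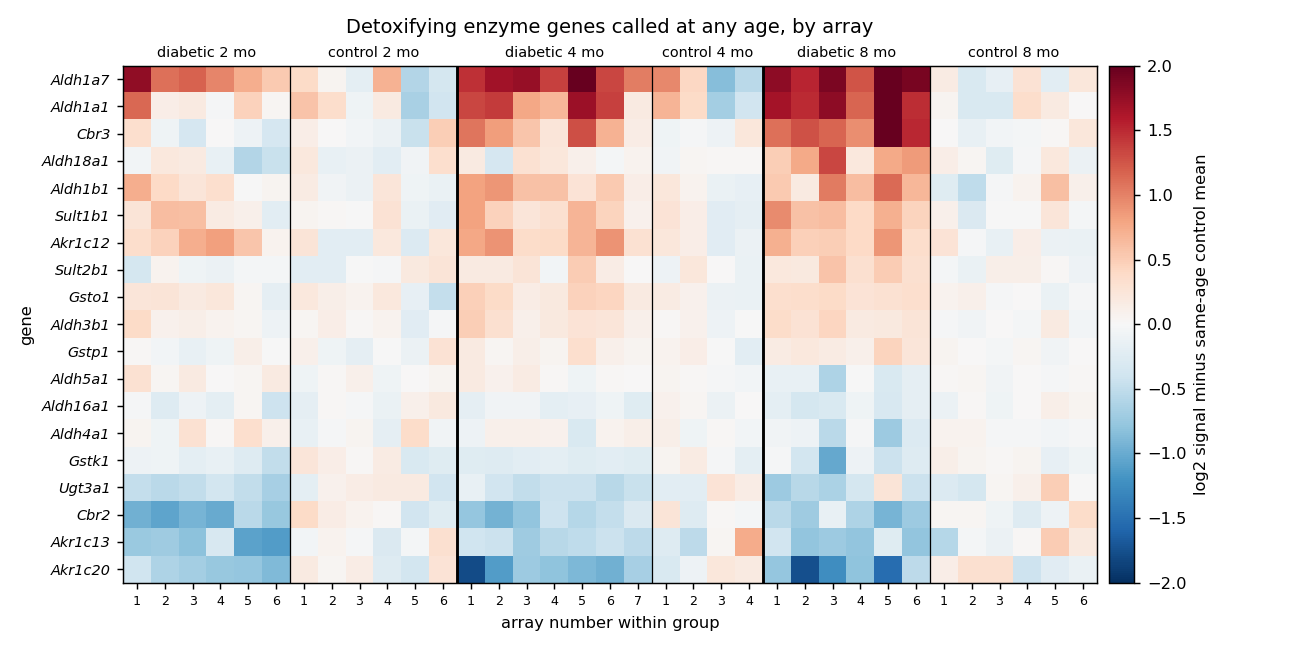
Log2 signal of each array minus the control mean of its age, for the 19 genes called at any age (rows) and all 35 arrays (columns, diabetic left of control within each age). The colour scale ends at 2 and -2, and the highest arrays of Aldh1a7, Aldh1a1 and Cbr3 pass its end. Aldh1a7 and Akr1c12 are red and Akr1c20 and Cbr2 blue in diabetic arrays of each age, while most of the rows between them take on colour at 8 months.

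Some arrays stood apart, and several member results are given with and without them. Arrays 5 and 6 of both 2-month groups lay away from the rest on the first principal component, and control 6 had an actin 3'/5' log2 ratio of 2.56. At 4 months, controls 3 and 4 had higher Arntl (7.84 and 8.17) and lower Dbp (8.75 and 8.02), clock genes, than the other arrays of that age. At 2 months, diabetic 1, 5 and 6 and control 6 had Arntl at 7.66 to 8.28 and Dbp at 7.95 to 9.29. The other arrays of that age had 6.52 to 6.82 and 10.14 to 11.62. Control 4 at 8 months had Alb at 12.3 and Apoa2 at 10.6, both made by the liver, against at most 8.19 and 6.11 in the other arrays of that age. At 2 months, controls 1 and 4 had Alb at 9.57 and 9.51 and Apoa2 at 8.07 and 7.84, against at most 8.26 and 6.41 in the other arrays. Diabetic 3 at 8 months was at 38.96 on the first principal component of that age, against 3.00 to 17.00 in the other diabetic arrays. It also had the highest signal of the injury marker Havcr1 (11.03, against at most 10.57). The 8-month calls of Gstk1 and Aldh5a1 were lost without it. All 20 proximal tubule and all 5 thick ascending limb markers were above the dim limit. As 13004 of the 18193 genes passed that limit, this does not test the whole-kidney label.

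The 2-month calls were refitted by array. Arrays 1 to 4 alone called 4 members, 2 of them among the 6, and arrays 5 and 6 alone called 2, with 1 among the 6. A term for the split called 9, all 6 included. Aldh1a7 was at 1.02 in arrays 1 to 4 and 1.09 in arrays 5 and 6, Akr1c20 at -0.63 and -0.78, and Ugt3a1 at -0.52 and -0.47, none called in either subset. Akr1c12 was at 0.58 and called in arrays 1 to 4, and at 0.33 and not called in arrays 5 and 6. Akr1c13 was at -0.58 and not called in arrays 1 to 4, and at -1.24 and called in arrays 5 and 6. Of the 35 fits that left out 1 array, Akr1c13 and Cbr2 were called in all 35, Akr1c12 in 29, Aldh1a7 and Ugt3a1 in 28 and Akr1c20 in 27. In a fit without 2-month controls 1 and 4, chosen after seeing the data, 5 members were called, 4 of them among the 6. Akr1c20 (-0.70) and Ugt3a1 (-0.51) were then not called. All 5 calls at 4 months were lost when control 3 or control 4 was left out, even singly.

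The aldehyde dehydrogenases held the largest increases. Of 19 tested members, 1 was called at 2 months and 2 at 4 months, all higher, and 8 were called at 8 months, 5 higher and 3 lower. These are 5.26%, 10.5% and 42.1% of the family, against 2.54%, 0.969% and 16.8% of all genes. The counts of this and the other families were not tested against those shares. The family median stayed near 0, at 0.08, 0.06 and -0.07, so the increases belonged to a few genes. The lead pair, Aldh1a7 and Aldh1a1, are close relatives, and Aldh1a1 oxidises retinaldehyde to retinoic acid.

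Aldh1a7 had a lowest, median and highest log2 signal of 7.29, 7.80 and 8.54 in diabetic kidneys at 2 months, against 6.18, 6.69 and 7.45 in control kidneys. At 4 months the diabetic values were 8.04, 8.47 and 9.28, against 7.98, 7.42, 6.17 and 6.48 in the 4 controls. The 8-month values were 9.21, 9.78 and 11.30 in diabetic kidneys, against 7.65, 7.95 and 8.23 in control kidneys. The groups overlapped at 2 months and lay apart at 4 and 8 months, with the 2 low 4-month controls being arrays 3 and 4. Aldh1a7 was 2.06-fold higher at 2 months (1.05 ± 0.28, adjusted p = 0.0388), 2.94-fold higher at 4 months (1.55 ± 0.31, adjusted p = 0.0062) and 3.86-fold higher at 8 months (1.95 ± 0.28, adjusted p = 6.85e-06). Without 4-month controls 3 and 4 that difference was 0.86 ± 0.36 and no longer called. Without the highest 8-month array, diabetic 5, the 8-month difference was 1.67.

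Aldh1a1 ranged over 8.48, 9.63 and 10.02 (lowest, median, highest) in diabetic kidneys at 4 months, against 8.99, 8.68, 7.62 and 7.92 in the controls. At 8 months it stood at 10.19, 10.60 and 11.46 in diabetic kidneys, against 8.72, 9.06 and 9.37 in control kidneys. All 8-month diabetic arrays were above all control arrays, while the 4-month groups overlapped. The difference was 1.06 ± 0.27 at 4 months (adjusted p = 0.0461) and 1.67 ± 0.25 at 8 months (3.19-fold, adjusted p = 9.86e-06), and at 2 months it was 0.32 ± 0.25 and not called. The 4-month call was lost in 18 of the 35 fits that left out 1 array, and without controls 3 and 4 together the difference was 0.53. Probes of Aldh1a1 and Aldh1a7 may read each other's transcripts, so the share of each gene in the signals is uncertain.

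Aldh18a1 makes the proline precursor pyrroline-5-carboxylate from glutamate, and Aldh4a1 and Aldh5a1 are mitochondrial enzymes of proline and GABA breakdown. Aldh18a1 had 7.00, 7.56 and 8.13 in diabetic kidneys at 8 months, against 6.56, 6.80 and 7.01 in control kidneys. Only the tails of the groups touched. It was 1.66-fold higher (0.74 ± 0.14, adjusted p = 0.000285), and its other tested probe set gave 0.68. Aldh4a1 (-0.29 ± 0.10, adjusted p = 0.0455) and Aldh5a1 (-0.23 ± 0.07, adjusted p = 0.0183) were lower. Aldh4a1 was near the threshold and was called in 21 of the 35 fits with 1 array left out, while Aldh5a1 lost its call without diabetic 3 (-0.16).

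The other called members were Aldh1b1, a mitochondrial enzyme (0.69 ± 0.16, adjusted p = 0.00158), Aldh3b1, which oxidises fatty aldehydes (0.29 ± 0.07, adjusted p = 0.00493), and Aldh16a1 (-0.24 ± 0.07, adjusted p = 0.0151), each at 8 months. At 2 months Aldh1b1 was at 0.29 ± 0.16 and not called, but the fit with replicate numbers as a block called it (adjusted p = 0.0405). Several well known members were not among those called. Aldh2, the mitochondrial enzyme that clears acetaldehyde, stood at -0.17, -0.09 and -0.21 at the 3 ages. Aldh9a1, which serves carnitine synthesis, stood at 0.02, 0.06 and 0.08. Aldh6a1 of valine breakdown was at -0.18 ± 0.07 at 8 months (adjusted p = 0.0665). For Aldh7a1 the brightest of 3 probe sets gave -0.07 at 8 months, while the others gave -0.43 (adjusted p = 0.00587, called) and -0.38 (adjusted p = 0.0937, not called).

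**Figure D3:**
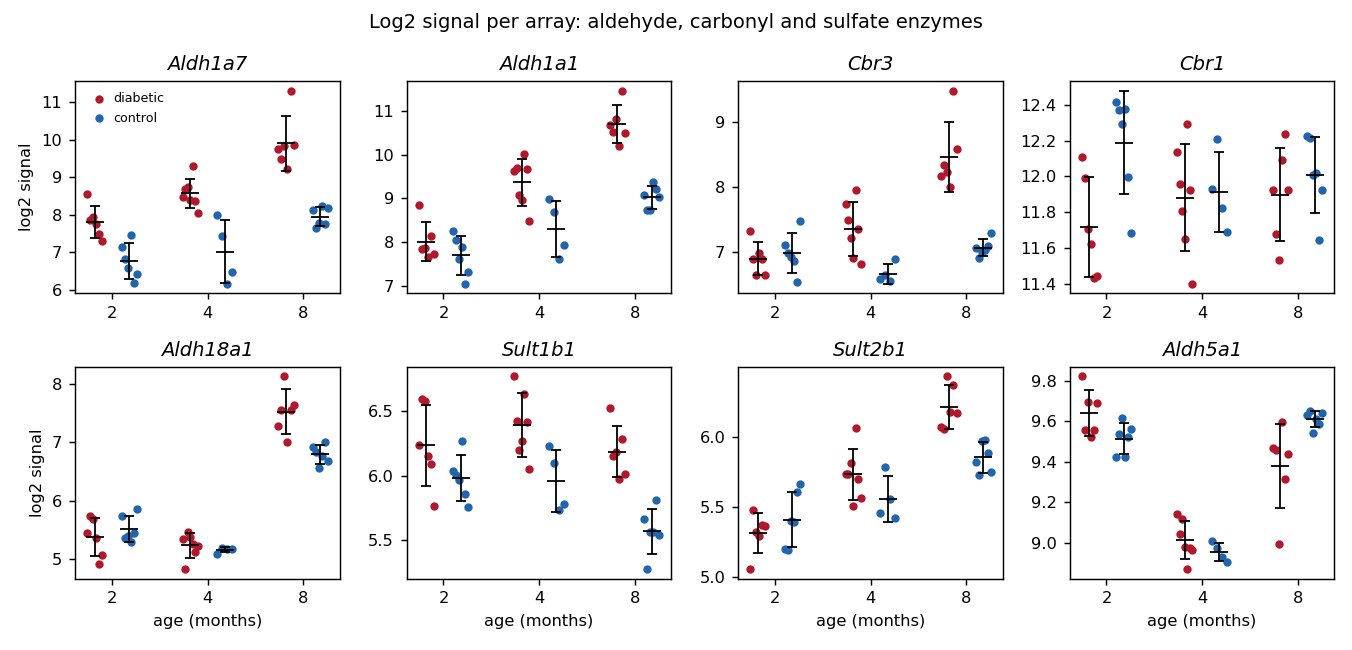
Log2 signal per array (points) with mean and SD (bars) for 8 genes at 2, 4 and 8 months, diabetic left of control. The y axis differs between panels, does not start at 0 and covers each gene's range. Diabetic and control arrays of Aldh1a7, Aldh1a1, Cbr3, Sult1b1 and Sult2b1 do not overlap at 8 months, whereas those of Cbr1 overlap at every age.

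The numbered Akr1c genes form a row on chromosome 13, Akr1cl lies on chromosome 1 and Akr7a5 on chromosome 4, and the called genes of the row went in both directions. Of the 9 tested Akr members 3 were called at 2 months (1 higher, 2 lower), 2 at 4 months (1 higher, 1 lower) and 3 at 8 months (1 higher, 2 lower). These are 33.3%, 22.2% and 33.3%, against 2.54%, 0.969% and 16.8% of all genes. Most of these enzymes are hydroxysteroid dehydrogenases, and several are mouse copies with no single human counterpart. Akr1c20 had the lowest difference of the 59 tested members at 4 and at 8 months.

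Akr1c20 had 5.52, 5.68 and 6.01 in diabetic kidneys at 2 months, against 6.03, 6.49 and 6.67 in control kidneys. At 4 months it had 5.99, 6.88 and 7.11 in diabetic kidneys, against 7.48, 7.68, 8.01 and 7.95 in the controls. At 8 months it had 6.32, 7.05 and 7.56 in diabetic kidneys, against 7.66, 8.08 and 8.40 in control kidneys. The groups did not overlap at any age. Signals fell by 0.68 ± 0.18 (adjusted p = 0.0323), 1.00 ± 0.20 (adjusted p = 0.00579) and 1.11 ± 0.18 (adjusted p = 3.19e-05) on the log2 scale, the last a 2.15-fold decrease. Without 4-month controls 3 and 4 the difference was -0.79 and not called. A second probe set of Akr1c20 was below the dim limit and was not tested.

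Akr1c12 was higher at every age. Its lowest, median and highest values were 7.47, 7.91 and 8.22 in diabetic kidneys at 2 months, against 7.13, 7.40 and 7.66 in control kidneys. At 4 months they were 7.42, 7.79 and 8.01 in diabetic kidneys, against 7.35, 7.24, 6.88 and 6.99 in the controls. At 8 months they were 7.07, 7.19 and 7.60 in diabetic kidneys, against 6.57, 6.65 and 6.99 in control kidneys. The groups overlapped at 2 months and were apart at 4 and 8 months. Akr1c12 differed by 0.50 ± 0.13 (adjusted p = 0.0298), 0.61 ± 0.14 (adjusted p = 0.0192) and 0.55 ± 0.13 (adjusted p = 0.00237), which is 1.41, 1.53 and 1.47-fold. Without controls 3 and 4 the 4-month difference was 0.44 and not called.

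Akr1c13, the near copy whose promoter is printed above, went the other way. It had 8.36, 8.69 and 9.16 in diabetic kidneys at 2 months, against 9.19, 9.45 and 9.79 in control kidneys. At 8 months it had 8.02, 8.06 and 8.58 in diabetic kidneys, against 8.25, 8.81 and 9.32 in control kidneys. Groups lay apart at 2 months and overlapped at 8 months. The difference was -0.80 ± 0.16 at 2 months (adjusted p = 0.00398), -0.51 ± 0.17 at 4 months (adjusted p = 0.189, not called) and -0.62 ± 0.16 at 8 months (adjusted p = 0.00606). A probe set that the annotation assigns to both Akr1c12 and Akr1c13 stood at -0.42, -0.23 and -0.38 and was called at no age. Only the promoters of the 2 genes were aligned, and the likeness of their transcripts was not measured. Probe sets may read both transcripts, so the split between them is uncertain.

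**Figure D4:**
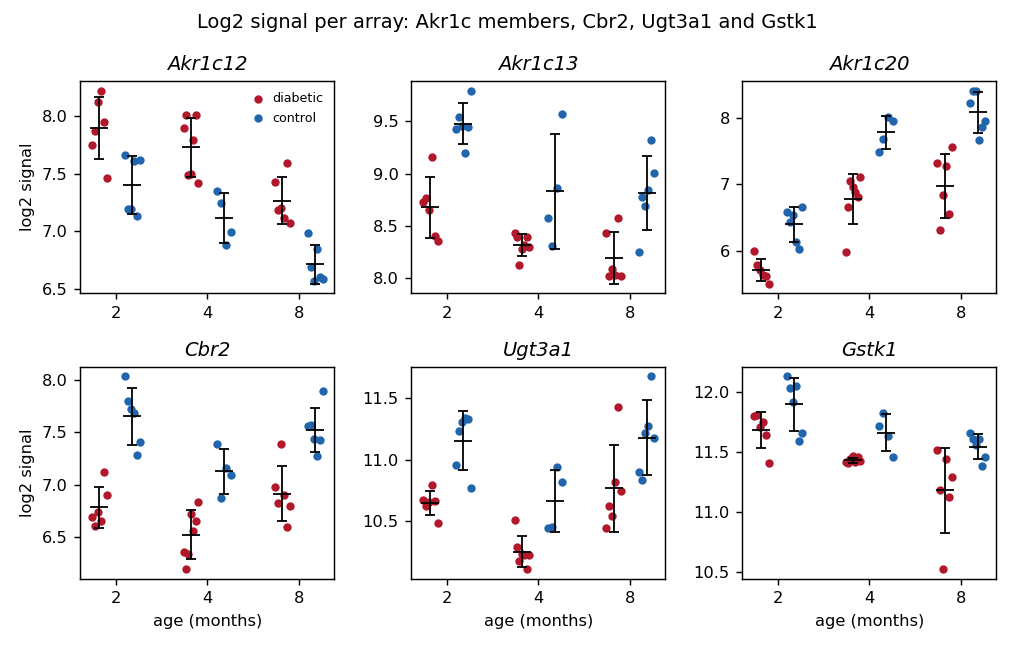
Log2 signal per array (points) with mean and SD (bars) for 6 genes at 2, 4 and 8 months, diabetic left of control. The y axis differs between panels and does not start at 0. Akr1c12 is higher and Akr1c13, Akr1c20, Cbr2 and Ugt3a1 are lower in the diabetic group mean at each age, and Akr1c20 is without overlap at all 3.

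The remaining Akr genes were called at no age. Akr1c18, which inactivates progesterone, was at 0.56 ± 0.16 at 2 months (adjusted p = 0.051) and passed with replicate numbers as a block (adjusted p = 0.0446), while its 4- and 8-month differences were 0.15 and 0.26. Akr1c21, a kidney hydroxysteroid dehydrogenase of the mouse, was at 0.34, 0.45 and 0.46, and Akr1c14 at -0.23, -0.81 and -0.50. Akr1c19 was at -0.34 ± 0.13 at 8 months (adjusted p = 0.0566). Akr7a5, which reduces aflatoxin aldehyde and succinic semialdehyde, was at -0.07, 0.05 and -0.12. Akr1c6 was too dim to test. Its one bright reading was 7.76 in 8-month control 4, the array with high Alb and Apoa2, and the other arrays of that group lay between 4.60 and 4.79.

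Among the carbonyl reductases, Cbr3 rose and Cbr2 fell, and Cbr1 was not called. Cbr3 and Cbr1 are closely related cytosolic enzymes, and Cbr2 is a mitochondrial reductase known from mouse lung. Cbr3 had 7.99, 8.28 and 9.48 in diabetic kidneys at 8 months, against 6.91, 7.05 and 7.29 in control kidneys. Every diabetic array was above every control array, and diabetic 5 was the highest. The difference was 1.40 ± 0.19 (2.63-fold, adjusted p = 1.67e-06), or 1.19 without diabetic 5. At 2 months it was -0.08 ± 0.19 and at 4 months 0.69 ± 0.20 (adjusted p = 0.104), neither called.

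Cbr2 had 6.60, 6.71 and 7.12 in diabetic kidneys at 2 months, against 7.28, 7.70 and 8.04 in control kidneys. At 4 months it had 6.19, 6.55 and 6.83 in diabetic kidneys, against 7.39, 6.87, 7.15 and 7.10 in the controls. At 8 months it had 6.59, 6.86 and 7.38 in diabetic kidneys, against 7.27, 7.50 and 7.90 in control kidneys. The groups were apart at 2 and 4 months, and 1 diabetic array reached into the control range at 8 months. Cbr2 fell by 0.87 ± 0.13 (adjusted p = 0.000147), 0.61 ± 0.14 (adjusted p = 0.0212) and 0.61 ± 0.13 (adjusted p = 0.0009) on the log2 scale. In the 2-month arrays 1 to 4 alone the difference was -1.14, and in arrays 5 and 6 alone it was -0.34 and not called. Without 4-month controls 3 and 4 it was -0.61 and not called. Cbr1 was at -0.47 ± 0.15 at 2 months (adjusted p = 0.0761; 0.0268 with replicate numbers as a block), -0.03 at 4 months and -0.11 at 8 months.

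The glutathione S-transferases were called at 8 months at about the share of all genes, 3 of 17 (17.6%) against 16.8%. At 2 months 0 of 17 were called by limma, with 0 at an unadjusted p under 0.05 and 6 called when arrays were weighted. At 4 months 0 were called, with 3 at an unadjusted p under 0.05 and 4 called with array weights. Of the 3 called at 8 months, 2 were higher and 1 lower. The family median was -0.07, 0.12 and -0.03.

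Gsto1 of the omega class, a thioltransferase and dehydroascorbate reductase, had 10.35, 10.41 and 10.45 in diabetic kidneys at 8 months, against 9.94, 10.07 and 10.18 in control kidneys. Gstp1 of the pi class had 12.19, 12.28 and 12.53 in diabetic kidneys, against 12.02, 12.10 and 12.14 in control kidneys. Both genes had groups without overlap, but the steps were small: 1.26-fold for Gsto1 (0.33 ± 0.09, adjusted p = 0.0105) and 1.17-fold for Gstp1 (0.22 ± 0.07, adjusted p = 0.0268). The second Gsto1 probe set gave 0.37 at 8 months and was called at 4 months too (0.34, adjusted p = 0.0459), where the brightest was at 0.33 and not called. Gstp1 was at 0.18 without diabetic 5 and at 0.21 without control 3 or control 5, and was not called then.

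Gstk1, the mitochondrial and peroxisomal kappa class enzyme, had 10.52, 11.23 and 11.52 in diabetic kidneys at 8 months, against 11.38, 11.58 and 11.66 in control kidneys. One diabetic array, number 3, lay far below the rest. Gstk1 fell by 0.37 ± 0.11 (adjusted p = 0.0191), and without that array the difference was -0.23 and not called. Gstm1 of the mu class was at 0.23 ± 0.10 at 8 months by its brightest probe set (adjusted p = 0.124), with groups that did not overlap, and 3 other Gstm1 probe sets were called at 0.25 to 0.31. Gstm3 was at 0.07, and a second probe set of it was called at 0.25. Mu class genes are near copies in a row on chromosome 3, so their probe sets may share signal. Gsta2 of the alpha class was at -0.02, 0.12 and 0.12 and was not called.

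Of the UDP-glycosyltransferases only 5 of 11 were bright enough to test, and 1 was called. That is 20% at 2 months and at 8 months, against 2.54% and 16.8% of all genes, so the 8-month count is near that share. Ugt3a1, whose human counterpart uses N-acetylglucosamine as its sugar donor, had 10.49, 10.66 and 10.79 in diabetic kidneys at 2 months, against 10.77, 11.27 and 11.34 in control kidneys. At 8 months it had 10.45, 10.68 and 11.43 in diabetic kidneys, against 10.83, 11.19 and 11.68 in control kidneys. The groups overlapped slightly at 2 months and more at 8 months. Ugt3a1 fell by 0.50 ± 0.13 (adjusted p = 0.0327) and 0.41 ± 0.13 (adjusted p = 0.0299), and at 4 months it was at -0.41 ± 0.14 and not called (0 of the 5 called, 1 at an unadjusted p under 0.05, 1 with array weights). The 8-month call was lost without any 1 of diabetic 1, 2 or 3 or control 3, 4 or 5, with differences of -0.40 to -0.31. A second probe set gave -0.52 at 2 months and -0.42 at 8 months, neither called. Its paralog Ugt3a2 was at 0.02, -0.07 and -0.32. Ugt2b38 was at 0.84 ± 0.25 at 2 months (adjusted p = 0.0672), 0.32 at 4 months and 0.50 at 8 months.

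The sulfotransferases had 0 of 6 tested members called at 2 months and 0 at 4 months, each with 1 at an unadjusted p under 0.05 and 1 with array weights, and 2 called higher at 8 months. The 8-month count is 33.3%, against 16.8% of all genes. Sult1b1, which sulfates phenols and thyroid hormones, had 5.97, 6.17 and 6.52 in diabetic kidneys at 8 months, against 5.27, 5.56 and 5.81 in control kidneys. Sult2b1, which sulfates cholesterol and other sterols, had 6.05, 6.17 and 6.43 in diabetic kidneys, against 5.73, 5.85 and 5.98 in control kidneys. Neither gene overlapped between groups. The difference was 0.62 ± 0.13 for Sult1b1 (1.53-fold, adjusted p = 0.000718) and 0.36 ± 0.09 for Sult2b1 (1.28-fold, adjusted p = 0.00579). Sult1d1, which acts on catecholamines, was at 0.09, -0.05 and 0.17.

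The difference between the ages was tested as the 8-month minus the 2-month diabetes effect, in which a scaling step that is common to an age cancels. It was called for 5 of the 59 members (8.47%), against 3.89% of all genes (3.01% higher, 0.877% lower). Cbr3 gained 1.48 ± 0.26 (adjusted p = 0.000819), Aldh1a1 1.35 ± 0.35 (adjusted p = 0.0235), Aldh18a1 0.88 ± 0.20 (adjusted p = 0.00873) and Sult2b1 0.45 ± 0.13 (adjusted p = 0.0439). Aldh5a1 went the other way, by -0.36 ± 0.10 (adjusted p = 0.0334). For Aldh1a7, called at all 3 ages, the change was 0.90 ± 0.40 and not called. Aldh5a1 was called in 27 and Sult2b1 in 20 of the 35 fits with 1 array left out, and Cbr3, Aldh1a1 and Aldh18a1 in all 35. Without 2-month controls 1 and 4 together, Aldh1a1 was at 1.16 (adjusted p = 0.0879) and Aldh5a1 at -0.31 (adjusted p = 0.108), and neither was called. Between 4 and 2 months 0 members were called by limma (0% of all genes, 1 member at an unadjusted p under 0.05, 1 with array weights). Between 8 and 4 months 0 were called (0.877% of all genes, 3 members at an unadjusted p under 0.05, 1 with array weights).

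Enzymes that supply donors or act beside these families gave a mixed picture at 8 months, when 16.8% of all genes were called. The counts in these small lists were not tested against that share. The microsomal transferase Mgst1 was the only called gene of 8 tested for glutathione supply and microsomal transferases (0.65 ± 0.15, adjusted p = 0.00177). The PAPS synthases Papss1 (-0.20 ± 0.06) and Papss2 (-0.34 ± 0.07), which make the sulfate donor, were lower among 9 genes for donor supply. Of 16 other aldehyde and ketone enzymes, Akr1b8 (0.81 ± 0.13), the quinone reductase Nqo1 (0.55 ± 0.19) and the alcohol dehydrogenase Adh7 (0.26 ± 0.09) were higher and the xylulose reductase Dcxr was lower (-0.32 ± 0.11). Among 13 other conjugating and hydrolysing enzymes, the epoxide hydrolase Ephx1 was higher at 2, 4 and 8 months (0.59, 0.68 and 0.83), each time without overlap. Without 4-month controls 3 and 4, the calls over all genes at that age fell from 126 to 5, and Ephx1 was not examined in that fit. Acy3 (-0.57) and Nat8 (-0.38), which act on mercapturates and their precursors, were lower at 8 months. So were the carboxylesterase Ces1d (-0.92) and the arylamine acetyltransferase Nat1 (-0.27). These 8-month differences were not examined without control 4, the array with high Alb and Apoa2. The carboxylesterase Ces1f was lower at 2 months (-0.61, and -0.69 without controls 1 and 4, called in both).

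Of 11 tested regulators of such enzymes, 1 was called higher and 2 lower at 8 months, beside 16.8% of all genes called. Esr1, the oestrogen receptor, had 7.39, 8.01 and 8.19 in diabetic kidneys at 8 months, against 8.64, 8.86 and 9.03 in control kidneys (-0.88 ± 0.12, adjusted p = 4.07e-06). Hnf4a, a proximal tubule transcription factor, was lower by a small step without overlap (-0.20 ± 0.06, adjusted p = 0.0222). Nr1i3, the xenobiotic receptor CAR, was higher at 4 months (0.67 ± 0.12) and 8 months (0.38 ± 0.11). Nr1i3 was not examined in the fit without 4-month controls 3 and 4, where the calls over all genes fell from 126 to 5. Nfe2l2, which encodes the regulator of the antioxidant response, was at 0.25, -0.04 and 0.17 and was not called.

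Markers of several cell types were called at 8 months, when 9.87% of all genes were higher and 6.95% lower. Of 20 proximal tubule markers 12 were lower and 0 higher, and their summed linear signal was 89283 to 132632 in diabetic kidneys, against 141714 to 145838 in control kidneys. Of 9 tubular injury markers all 9 were higher, with sums of 8536 to 24948 against 5757 to 6302. Macrophage markers were higher in 10 of 11 (7455 to 24243 against 5630 to 7473), lymphocyte markers in 5 of 7 (1319 to 5466 against 789.8 to 1017) and fibroblast markers in 5 of 8 (4030 to 16193 against 2140 to 4175). At 2 months the call counts were 0 higher for each of these 5 lists and 1 lower, a proximal tubule marker. Of 5 thick ascending limb markers 2 were lower at 2 months and 4 at 8 months, and 1 tubular injury marker was higher at 4 months. That 4-month call was not examined without controls 3 and 4. At 4 months 6 of the 9 injury markers had an unadjusted limma p under 0.05. Injury sums were then 6205 to 8222 in diabetic and 4823 to 5268 in control kidneys. Proximal tubule sums were 96880 to 126523 against 126429 to 136494, and thick ascending limb sums 26034 to 28552 against 29125 to 32698. Macrophage, lymphocyte and fibroblast sums overlapped at that age. Of 6 endothelial markers 0 were called at 8 months. Of 7 collecting duct markers 2 were higher and 1 lower at that age, and of 4 podocyte markers 1 was lower. Sums run over all measured markers of a list, tested or not. The part of these marker shifts in the 4- and 8-month enzyme results was not tested. Dbp, a clock gene, was at 7.32 to 8.25 in 8-month diabetic arrays 1, 2 and 5 and at 9.48 to 10.88 in the controls. With a clock covariate the fit called 19 members at 8 months, 17 of them shared with the 19 above. At 2 months it called 6, with 5 shared and Akr1c20 lost. At 4 months it called 4, with 3 shared and Akr1c12 and Aldh1a1 lost.

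The 19 members that were not tested had mean log2 signals between 3.10 and 5.22. They were Gstm6, Gsto2, Gstp3, Gstt4, Ugt2a3, Ugt2b1, Ugt2b35, Ugt2b36, Ugt2b37, Ugt2b5, Sult1c1, Sult1e1, Sult2a2, Sult2a8, Sult3a1, Sult4a1, Sult6b1, Aldh3a1 and Akr1c6. Among them, Ugt2b37 had 4.75, 5.80 and 7.36 as its lowest, median and highest values in diabetic kidneys at 8 months, against 4.01 to 4.46 in control kidneys. Control 4 of that age, the array with high Alb and Apoa2, was the highest of its group in several other untested members. It read 7.98 for Sult2a2, 7.24 for Sult3a1, 7.18 for Ugt2b36, 7.02 for Sult2a8, 6.90 for Ugt2b5 and 6.40 for Ugt2b1. For Ugt2b5 the 8-month diabetic arrays had 5.24 to 6.67, while the other controls had 4.35 to 4.63. With no dim limit, 22 of 78 members were called at 8 months (14 higher, 8 lower), beside 2377 of all 18193 genes.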

How the data were processed

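The deposited values are log2 probe set signals of 35 Affymetrix arrays, made by the authors from whole-kidney cRNA. How they corrected background, summarised probes and normalised arrays is not given in the sources used here, and the ages may have been scaled apart, so groups were compared within an age. Arrays have no read depth, and their number limits the precision. Genes were named through the platform annotation, using probe sets that name 1 gene (110 for the members, while 8 probe sets name a member among several genes). The brightest probe set stood for a gene, and genes under the 40th percentile of all 45101 probe sets (log2 5.273) were left out. One limma (3.58.1, R 4.3.3) fit with a mean per group gave the differences, with two-sided p-values adjusted by Benjamini-Hochberg over 13004 genes. The text names every called member, the brightest member of each family, and called genes of other lists. Members and lists were chosen with earlier results of these data known. At 2 months, diabetic and control arrays with the same replicate number deviated together (correlation of deviations 0.246 to 0.444, over 0.1 in 6 of 6 pairs). The correlation was over 0.1 in 1 of 4 pairs at 4 months and 2 of 6 at 8 months. No label pairs the arrays, and arrays with different numbers were not compared. Arrays 5 and 6 of both 2-month groups lay away from the rest, so these correlations cannot show pairing by number. Alternatives were other filters, scalings, probe set rules, blocks, covariates, array weights and left-out arrays. The fits were tested on simulated data. Promoters are RefSeq windows of GRCm38.p6, aligned with Biopython 1.88.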

Additional observations from a re-analysis of the deposited data

Results flagged for a closer look

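In 150 sets of 4 to 7 arrays of 1 group and gene (25 named members), 8 had an end array separated from the others by a gap past Dixon's limit, 5.33%, where chance gives about 1 in 20. In 2-month control 6, the array with the high actin 3'/5' ratio, Gsta2 was the highest of its group at 13.4, Ugt3a2 the lowest at 11.68 and Sult1d1 the lowest at 11.59. At 4 months, Akr1c20 was lowest in diabetic 1 at 5.994, Akr7a5 lowest in diabetic 5 at 12.5, and Aldh18a1 lowest in control 1 at 5.095. At 8 months, Aldh1a7 was highest in diabetic 5 at 11.3 and Aldh3b1 highest in control 5 at 6.281.

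By the test of the difference itself, the diabetes effect at 8 months minus that at 2 months was 1.48 for Cbr3, 1.35 for Aldh1a1, 0.88 for Aldh18a1, 0.45 for Sult2b1 and -0.36 for Aldh5a1.

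A probe set outside the main measurement, which lists 2 genes of the Aldh3b group and so names neither, was at 5.27 ± 0.21 in diabetic and 5.64 ± 0.17 in control kidneys at 8 months (SD, n = 6 each), a difference of -0.38 ± 0.09 (limma adjusted p = 0.00437). A second probe set of that kind was at -0.18 and was not called.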

How the results depend on the processing

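At 2 months the 6 calls became 3 in a fit of that age alone, 2 in arrays 5 and 6 alone and 17 with array weights, and 2 to 8 with 1 array left out (2 without diabetic 3, control 2 or control 3, and 3 without diabetic 4 or control 5). At 4 months the 5 calls became 0 without controls 3 and 4 and 15 with array weights, and 0 to 6 with 1 array left out (0 without control 3 or control 4, 3 without diabetic 2). Without both controls limma called 0 members, with 9 at an unadjusted p under 0.05. At 8 months the 19 calls stayed within 1.5 times in each setting run, and were 15 to 24 with 1 array left out. The 5 differences between 8 and 2 months became 8 with array weights, 3 without 2-month controls 1 and 4 (an alternative chosen after seeing the data) and 3 to 6 with 1 array left out. Array weights gave 1 call between 4 and 2 months and 1 between 8 and 4 months, where leaving out 1 array gave 0 to 0 and 0 to 1 calls. With replicate numbers as a block, the calls were 9 at 2 months, 5 at 4 months (3 shared) and 23 at 8 months, and 7 between 8 and 2 months. A fit of 1 age alone gives no difference between ages. Of single genes, 0 reversed: 431 values under other settings and 1121 with 1 array left out kept their side of the threshold, and 52 and 104 lost it. Akr1c20 at 4 months was at -0.66 when probe sets were averaged, Gstk1 at 8 months at -0.23 with array weights, Sult2b1 between 8 and 2 months at 0.29 with array weights, and Aldh18a1 at 1.39 in 2-month arrays 5 and 6. The cause was not tested.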

Other observations

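The 3 probe sets that list several Ugt1a genes had differences of -0.0037, -0.0026 and 0.0052 on the log2 scale at 8 months and were called at no age. They cannot be assigned to 1 gene.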
